A study of Caenorhabditis elegans with 18 samples.

Results

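let-7 is a microRNA (miRNA), a short RNA that guides an Argonaute protein to messenger RNAs with matching sites and lowers their output. It was followed by its own name through small RNA libraries of young adult Caenorhabditis elegans, and it is 1 of 176 names that each library lists. There were 6 genotypes with 3 libraries each, 18 libraries in all, from pellets of whole animals kept at 25 °C with OP50 bacteria as food. Wild type was N2 (Bristol). The single mutants carried dpf-3(xe68), alg-1(gk214) or alg-2(ok304), and the double mutants carried dpf-3(xe68) with alg-1(gk214) or dpf-3(xe68) with alg-2(ok304); they are called dpf-3, alg-1, alg-2, dpf-3;alg-1 and dpf-3;alg-2 here. The comparisons ask how let-7 differs when an Argonaute gene is mutated and whether a dpf-3 mutation changes that difference.

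let-7 is known for the step from larva to adult. Its level climbs late in larval life, and it then represses targets such as lin-41 so that skin cells stop their larval divisions. Relatives with the same seed (the bases that pair with the target), mir-48, mir-84 and mir-241, act earlier in larval life, largely on hbl-1. lin-4 starts the pathway by repressing lin-14 and lin-28. ALG-1 and ALG-2 are the Argonautes that carry most miRNAs of the worm's body, and a miRNA that is not held by an Argonaute is generally unstable. dpf-3 encodes a dipeptidyl peptidase, an enzyme that trims a pair of amino acids from protein ends.

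Library totals ran from 7.78 to 22.5 M (mega) counts. A library name is given in the labels of the 6 dpf-3;alg-2 and alg-2 libraries and not for the other 12. In any comparison that crosses these sets, the set and the genotype cannot be told apart. The labels do not say that the replicates were separate cultures, and p-values therefore measure library-to-library spread, which could be technical only. Counts of miRNAs do not show the dpf-3, alg-1 or alg-2 transcripts, so the genotype labels were not checked on the mutated genes. The mir-35 family, which marks oocytes and embryos, held 11.7% to 13.5% of the counts of the wild type libraries and 0.331% to 0.495% of those of alg-1 and alg-2. Fewer cells of a type and less RNA per cell cannot be told apart in such whole-animal samples.

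let-7 was abundant in every genotype, and alg-1 stood apart with far less of it. Levels are given as CPM, counts relative to the size of the library, scaled by TMM factors that correct for differences in composition. In wild type the 3 libraries held 13626, 15568 and 14083 CPM of let-7. In dpf-3 they held 14719, 14395.5 and 16180.3 CPM. The ranges of these genotypes overlap, and the highest value is a dpf-3 library. In alg-1 the libraries held 5343, 5607 and 5163 CPM, and every one of them lay far below the lowest value of any other genotype, 13626.

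The libraries of dpf-3;alg-1 held 20578, 19000 and 20864 CPM, so every library with both mutations lay above every wild type and every dpf-3 library. The libraries of alg-2 held 20882, 23671 and 19168 CPM, also above all of wild type. The dpf-3;alg-2 libraries held 15596, 21705 and 18908 CPM. The lowest of these is only just above the highest wild type library, and the spread is wide. Behind the levels stand 56992 to 377981 counts of let-7 per library, which give a counting error of 0.163% to 0.419% of the value, below the spread between replicates throughout. Counting error covers the sampling of reads only.

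**Figure D1:**
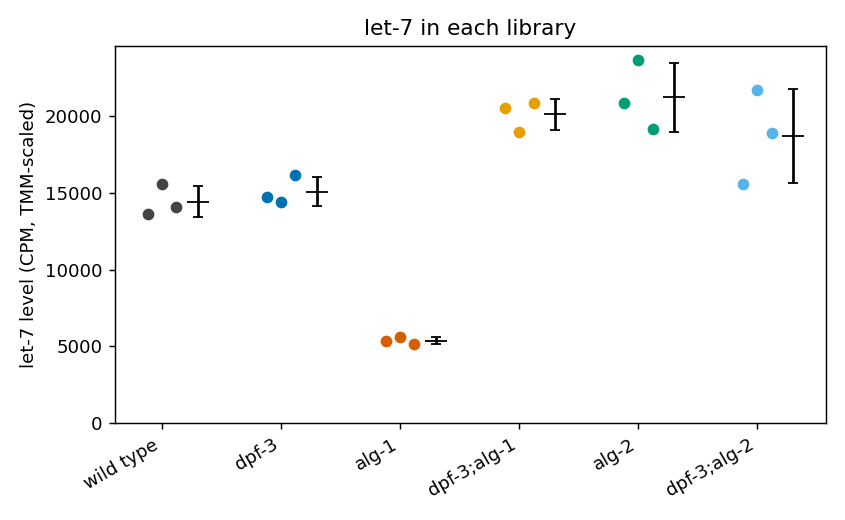
Level of let-7 in each of the 18 libraries (vertical axis, CPM scaled by TMM factors, linear from 0) by genotype (horizontal axis). Points are libraries, bars the mean and SD of 3 libraries. The 3 alg-1 libraries sit between 5163 and 5607 CPM and all others at 13626 CPM or above.

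The mean level was 5371 ± 223 CPM in alg-1, 14425 ± 1015 in wild type and 15098 ± 951 in dpf-3, then 18737 ± 3058 for dpf-3;alg-2, 20147 ± 1004 for dpf-3;alg-1 and 21240 ± 2273 for alg-2 (SD, n = 3 each). The highest mean was thus 3.95 times the lowest. Among neighbours in this order, alg-1 lay below wild type without overlap, while wild type and dpf-3, then both double mutants, and then dpf-3;alg-1 and alg-2, did not differ beyond their spread. The step from dpf-3 to dpf-3;alg-2 passed the test, although the libraries overlap. let-7 held 0.468% to 2.35% of all counts. Its rank among the 139 tested miRNAs was 25th in each alg-1 library, 19th to 21st in wild type, 11th to 18th in dpf-3, 9th to 13th for dpf-3;alg-1, 10th or 11th for alg-2 and 12th to 17th for dpf-3;alg-2. The coefficient of variation between replicates was 4.16% in alg-1, 4.98% for dpf-3;alg-1, 6.30% in dpf-3, 7.04% in wild type and 10.7% in alg-2. In dpf-3;alg-2 it was 16.3%, where the median of 115 miRNAs at 10 CPM or more was 9.34% and 13 miRNAs varied more than let-7.

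let-7 was lower in the alg-1 single mutant. Its level in alg-1 was 2.69-fold below wild type, a log2 change of -1.43 (SE 0.11, 95% interval -1.66 to -1.19, adjusted p = 1.77e-09 with edgeR's quasi-likelihood test and Benjamini-Hochberg adjustment over 139 miRNAs). The threshold for a call is an adjusted p below 0.05. alg-1 is a genotype with wide change: 42.4% of the tested miRNAs were called higher and 41.7% lower, and the libraries of these genotypes did not overlap for 83.5% of them. let-7 was the 28th lowest of the 139 changes, and the median change was -0.08. With upper quartile factors in place of TMM the median of all miRNAs shifted to 1.07, and let-7 changed by -0.26 (adjusted p = 0.091, edgeR), which is past no threshold. Relative to the median of all miRNAs, let-7 lay between -1.40 and -1.32 log2 units under all 5 scalings. A change of scaling moves all miRNAs by about the same amount, so this range cannot show which scaling is right.

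Markers of several cell types moved in the same comparison. All 5 neuron markers were higher in alg-1 than in wild type, with a summed level of 1941 to 3026 CPM against 1199 to 1276. The glial miRNA mir-228 was higher by 1.90, and the 8 members of the mir-35 family summed to 3389 to 3782 CPM against 115777 to 141543, with 7 lower and mir-42, at 0.35, past no threshold. Of the intestinal pair mir-60 was higher by 0.65 and mir-243 was at -0.32 and did not pass the test, and the muscle miRNA mir-1 did not pass the test. None of these markers was at 0, and their part in the let-7 result was not tested. With the mir-35 family taken out before scaling, let-7 changed by -1.55.

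In animals without alg-1, let-7 was higher when dpf-3 was mutated too. dpf-3;alg-1 held 3.75-fold more let-7 than alg-1, a log2 change of 1.91 (SE 0.11, 95% interval 1.67 to 2.15, adjusted p = 8.56e-11, edgeR). The 6 libraries did not overlap. In this comparison 34.5% of the miRNAs were called higher and 41.7% lower, 79.1% did not overlap, the median change was -0.14, and let-7 was the 18th highest. The call held under every scaling tried, with the smallest change, 0.78, under upper quartile factors. The mir-35 family was also higher here as a sum, at 9.05%, 4.88% and 4.75% of the double mutant's counts against 0.331% to 0.348% in alg-1. Of its 8 members 7 were higher and mir-42 was lower, at -1.55 (SE 0.40). Neuron markers summed to 1821 to 2329 CPM against 1941 to 3026 in alg-1, with 2 of 5 called lower and none higher. The glial mir-228 fell by 1.61, both intestinal miRNAs were lower, and mir-1 did not pass the test. The part of these markers was not tested. Without the mir-35 family in the table the let-7 change was 2.11, and without the dpf-3;alg-1 library at 9.05% it stayed within the range of 1.88 to 1.95 found over 6 libraries left out in turn.

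let-7 in dpf-3;alg-1 did not stop at the wild type level. It was 1.40-fold higher than in wild type, a log2 change of 0.48 (SE 0.11, adjusted p = 0.0016, edgeR), with no overlap, where 25.9% of the miRNAs were called higher, 30.9% lower and 64.7% did not overlap. Against dpf-3 it was higher by 0.42 (SE 0.11, adjusted p = 0.00354), again with no overlap. There 28.8% were called higher, 29.5% lower and 62.6% did not overlap. The call against dpf-3 was lost with upper quartile factors, at 0.16. Against wild type all 8 mir-35 family members were lower, 4 of 5 neuron markers higher and the intestinal mir-243 lower at -0.69. Against dpf-3, 7 of 8 mir-35 family members and 4 of 5 neuron markers were higher and mir-243 was lower at -0.46. mir-1 and mir-228 did not pass the test in either, and the part of these markers was not tested.

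In animals with both Argonaute genes intact the dpf-3 mutation left let-7 at 0.07 (SE 0.11) on the log2 scale, which did not pass the test (adjusted p = 0.709, edgeR). The 95% interval was -0.17 to 0.30, that is 0.890-fold to 1.23-fold of wild type. In this comparison 15.8% of the miRNAs were called higher and 18% lower, and 46% did not overlap. Upper quartile factors, which moved the median of all miRNAs to 0.33, put let-7 past the threshold at 0.37. The glial miRNA mir-228 was higher by 0.43, and the neuron, muscle and intestine markers did not pass the test. All 8 mir-35 family members were lower.

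The response of let-7 to dpf-3 differed between backgrounds. In alg-1 animals it was larger by 1.84 log2 units (SE 0.16, 95% interval 1.51 to 2.17, adjusted p = 1.29e-08, edgeR) than in animals with alg-1 intact. Of the 139 miRNAs 28.8% had a higher and 40.3% a lower response there, and let-7 was the 18th highest. With upper quartile factors the difference was 0.42 and its adjusted p 0.057, past no threshold. In alg-2 animals the response of let-7 differed by -0.25 (SE 0.16, 95% interval -0.58 to 0.08, adjusted p = 0.239) from that in animals with alg-2 intact, with 16.5% of the miRNAs called higher and 11.5% lower. Set directly against each other, the responses in alg-1 and alg-2 animals differed by 2.09 (SE 0.16, adjusted p = 4.06e-09), with 30.9% called higher and 35.3% lower. With upper quartile factors that difference was 0.92. Each dpf-3 effect in these differences was measured within a set of libraries, but alg-2 animals are in one set and the others in the second, so a difference in the response between sets cannot be told apart.

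let-7 was higher in animals without alg-2. They held 1.47-fold the wild type level, a log2 change of 0.56 (SE 0.11, 95% interval 0.32 to 0.79, adjusted p = 0.000787, edgeR), and the libraries did not overlap. The change was 1.38 with upper quartile factors, where the median over all miRNAs was 0.87. It was the 14th highest change, where 26.6% of the miRNAs were called higher, 18.7% lower and 51.8% did not overlap. mir-1 was higher by 0.38 and mir-228 by 0.38 in alg-2, 1 of 5 neuron markers, mir-790, was higher, the intestinal pair did not pass the test and all 8 mir-35 family members were lower. The part of these markers was not tested, and the library set cannot be told apart from the genotype. In dpf-3;alg-2 let-7 was 1.30-fold above wild type, a log2 change of 0.38 (SE 0.11, adjusted p = 0.0100), where 28.8% were called higher, 18.7% lower and 56.8% did not overlap. That call did not survive leaving out replicate 2 of dpf-3;alg-2, at 0.26, or RLE factors, at 0.28, and it was 1.24 with upper quartile factors. Here too the whole mir-35 family was lower, 8 of 8, mir-1 was higher by 0.30 and mir-228 by 0.44, 1 of 5 neuron markers, mir-124, was lower at -0.47, and the intestinal pair did not pass the test. The part of these markers was not tested.

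When dpf-3 was mutated in animals without alg-2, which all lie in the same library set, let-7 changed by -0.18 (SE 0.11, 95% interval -0.41 to 0.05, adjusted p = 0.325, edgeR). The libraries overlapped. Here 12.9% of the miRNAs were called higher, 5.76% lower and 34.5% did not overlap. Against dpf-3, let-7 in dpf-3;alg-2 was higher by 0.31 (SE 0.11, adjusted p = 0.0423), with 18% called higher, 11.5% lower and 45.3% not overlapping. That call was lost under 11 of 16 other settings, and with upper quartile factors the change was 0.88.

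The single Argonaute mutants lay at opposite ends of the order. let-7 was 3.95-fold lower in alg-1 than in alg-2, a log2 change of -1.98 (SE 0.11, adjusted p = 3.77e-11, edgeR), without overlap. Here 41.7% of the miRNAs were called higher, 41% lower and 84.2% did not overlap. All 5 neuron markers and mir-228, at 1.52, were higher in alg-1, and mir-1 was lower at -0.40. Of the mir-35 family 1 was higher and 2 lower, and of the intestinal pair 1 was higher and 1 lower. The part of these markers was not tested. Against dpf-3, alg-1 was at -1.49 (SE 0.11, adjusted p = 1.15e-09, edgeR), or -0.63 with upper quartile factors. There 41.7% were called higher, 45.3% lower and 87.8% did not overlap. dpf-3;alg-2 was above alg-1 by 1.80 (SE 0.11, adjusted p = 1.01e-10, edgeR), where 43.2% were called higher, 41% lower and 86.3% did not overlap. alg-2 was above dpf-3 by 0.49 (SE 0.11, adjusted p = 0.00216, edgeR), or 1.01 with upper quartile factors. In that pair 14.4% were called higher, 12.9% lower and 43.9% did not overlap. The double mutants differed by 0.10 (SE 0.11, 95% interval -0.13 to 0.34, adjusted p = 0.433), which did not pass the test, with 25.9% called higher and 37.4% lower. dpf-3;alg-1 against alg-2 gave -0.08 (SE 0.11, 95% interval -0.31 to 0.16, adjusted p = 0.569), with 25.2% called higher and 33.8% lower. With upper quartile factors both of these passed, at -0.72 and -0.85, the first with its sign turned. Between the double mutants, 7 of 8 mir-35 family members and 5 of 5 neuron markers were higher in dpf-3;alg-1. There 1 of the intestinal pair was lower, and mir-1 and mir-228 did not pass the test. The part of these markers was not tested. Of all 15 pairs of genotypes let-7 was called different in 11, the 5 pairs with the alg-1 single mutant among them. The let-7 values did not overlap in 10. Over all miRNAs the share not overlapping was 79.1% to 87.8% in those 5 pairs and 34.5% to 68.3% in the rest. These counts therefore do not set let-7 apart from other miRNAs. Of the 10 pairs without the alg-1 single mutant, 6 were called. Many of these pairs share a genotype and are not independent.

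The split of calls over all miRNAs depends on the scaling, and it moved by over 10 percentage points in 29 of 72 recomputed comparisons. The share of higher calls among all calls went, with upper quartile factors, from 50.4% to 79.0% for alg-1 against wild type, from 46.8% to 83.8% for dpf-3, from 58.7% to 93.7% for alg-2 and from 60.6% to 94.1% for dpf-3;alg-2 against wild type. For dpf-3;alg-1 it went from 45.3% to 17.9% against alg-1 and from 49.4% to 25.3% against dpf-3, and for the difference by alg-1 background from 41.7% to 12.6%. With the mir-35 family removed it went from 46.8% to 64.1% for dpf-3 against wild type and from 45.6% to 59.2% for dpf-3;alg-1 against wild type.

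**Figure D2:**
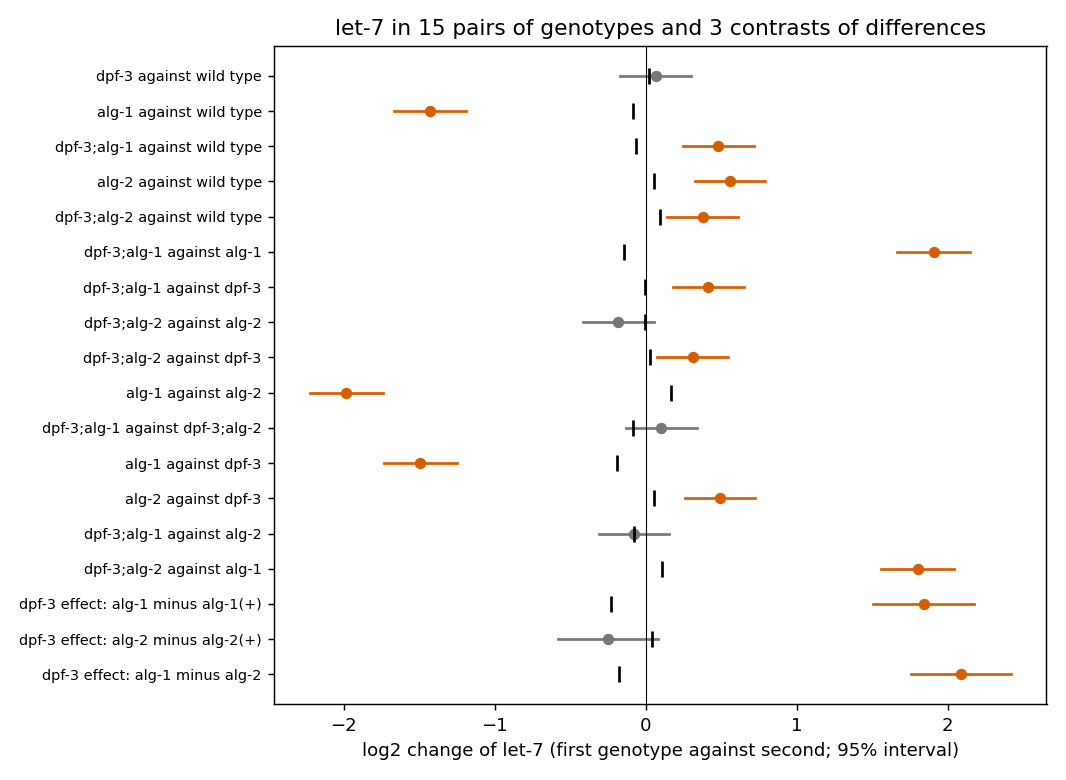
Log2 change of let-7 (horizontal axis) in 15 pairs of genotypes and 3 differences between dpf-3 effects (vertical axis). Points are changes, lines 95% intervals, orange marks an adjusted p below 0.05 and short black bars the median change of the 139 tested miRNAs. The alg-1 changes of -1.43, -1.49 and -1.98 lie far below the medians; with upper quartile factors the first is -0.26.

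Members of the let-7 family, listed by name and without a check of their seeds, changed in both directions in alg-1. Of the 8 members, let-7 included, 3 were called higher than in wild type and 4 lower, with a median of -0.24, shares near those of all miRNAs (42.4% higher, 41.7% lower). Of the 6 developmental timing miRNAs, again with let-7, 2 were higher and 4 lower. mir-48 was higher by 0.37 (SE 0.08) where let-7 fell, and lin-4 was higher by 0.52 (SE 0.09). mir-241 was at -0.97 (SE 0.14), mir-237, a lin-4 relative, at -0.31 (SE 0.09), mir-84 at -0.26 and mir-794 at -0.26, all called lower, and with upper quartile factors these 4 turned to 0.19, 0.85, 0.90 and 0.91, while let-7 kept its sign. mir-793, which is also counted among the neuron markers, was higher by 0.65 and mir-1821 by 0.35, and mir-795 was at -0.23 and did not pass the test.

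Between alg-1 and its double mutant with dpf-3, 5 of the 8 family members were higher and none lower, with a median of 0.62, where 34.5% of all miRNAs were higher and 41.7% lower. mir-241 rose by 1.71 (SE 0.14) and mir-795 by 1.46 (SE 0.17), next to let-7 at 1.91. mir-794 was higher by 0.71 and mir-84 by 0.53, but both turned with upper quartile factors, to -0.41 and -0.60. mir-48 was at 0.17 (SE 0.08, adjusted p = 0.069, edgeR) and did not pass the test, and lin-4 fell by 0.47 (SE 0.09). Of the 6 timing miRNAs 4 were higher and 1 lower here. mir-237 was among the higher ones at 0.66, and turned to -0.46 with upper quartile factors.

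In dpf-3 against wild type mir-48 was higher by 1.34 (SE 0.08) and mir-241 by 1.70 (SE 0.14), where let-7 was at 0.07 and passed no threshold. Of the family 3 members were higher and none lower, with a median of 0.08, and of the timing miRNAs 4 were higher, against 15.8% higher and 18% lower over all miRNAs. mir-795 at 0.47, mir-237 at 0.41 and lin-4 at 0.28 were the others, and the calls of mir-795 and lin-4 were lost with RLE factors and with DESeq2. The difference in the dpf-3 response by alg-1 background varied among the members. mir-48 had a response lower by -1.17 (SE 0.12) in alg-1 animals, mir-241 one that differed by 0.01 (SE 0.20), and let-7 one higher by 1.84. Of the family 4 members had a higher response and 1 a lower one, against 28.8% and 40.3% over all miRNAs. mir-795 at 0.99, mir-794 at 0.69 and mir-84 at 0.44 were the other higher ones, and all 3 turned with upper quartile factors, to -0.43, -0.74 and -0.98.

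In dpf-3;alg-1 against wild type 7 of the 8 family members were higher and none lower, with a median of 0.51, against 25.9% higher and 30.9% lower over all miRNAs. mir-795 was highest at 1.23, and mir-1821, at 0.17, did not pass the test. Both genotypes without alg-2 had 5 members higher than wild type and none lower, with a median of 0.46 for alg-2 and one of 0.34 for dpf-3;alg-2, and all 6 timing miRNAs were higher in both. The shares of all miRNAs were 26.6% higher and 18.7% lower for alg-2, and 28.8% and 18.7% for dpf-3;alg-2. mir-237 was the largest of these, at 0.86 and 0.91. With dpf-3 mutated on top of alg-2, none of the family was higher and 1, mir-794, was lower at -0.48 (12.9% and 5.76% over all miRNAs). Against dpf-3, the dpf-3;alg-1 animals had 5 family members higher, let-7 among them, and 2 lower, mir-48 at -0.80 and mir-241 at -0.96 (28.8% and 29.5% over all miRNAs).

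**Figure D3:**
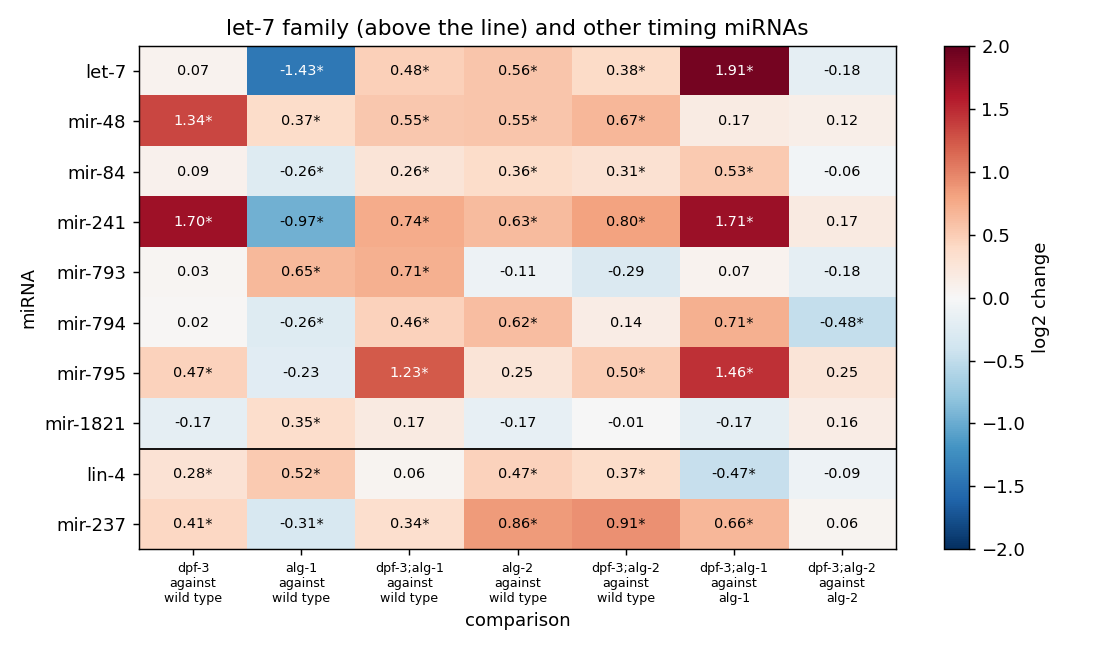
Log2 change (colour and printed value) of the 8 let-7 family miRNAs, above the line, and of lin-4 and mir-237, below it, in 7 comparisons (columns). Stars mark an adjusted p below 0.05. In alg-1 against wild type let-7 is at -1.43 while mir-48 is at 0.37; with upper quartile factors the signs of mir-84, mir-241, mir-794 and mir-237 turn in that column, and those of mir-84, mir-794 and mir-237 in dpf-3;alg-1 against alg-1.

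Ratios inside a library do not depend on scaling, and they showed let-7 as a smaller part of its family in alg-1. let-7 held 31.1%, 35.7% and 33.9% of the family's counts in wild type and 13.6%, 14.3% and 14.0% in alg-1. The means were 33.6% ± 2.31 and 13.97% ± 0.347 (SD, n = 3). In dpf-3 the share was 18.7%, 19.8% and 20.3%, between the others and without overlap with either. There let-7 itself did not pass the test, and the family sum rose from 42955 ± 1224 to 76997 ± 3861 CPM (SD, n = 3). In alg-1 the family sum was 38458 ± 1390 CPM.

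The dpf-3;alg-1 share was 31.7%, 33.7% and 34.8%, inside the range of wild type. That of alg-2 was 34.8%, 36.5% and 32.0%, and that of dpf-3;alg-2 was 26.4%, 33.3% and 31.5%. The shares of these 3 genotypes overlapped those of wild type, at family sums of 60418 ± 4316, 61394 ± 3250 and 61563 ± 2805 CPM (dpf-3;alg-1, dpf-3;alg-2 and alg-2, SD, n = 3). The shares did not overlap in 9 of 15 pairs of genotypes. With 3 libraries a side the lowest possible value of the two-sided exact permutation test is p = 0.1. Each of these 9 pairs reached it (0.167 when adjusted over 15 pairs), so no pair could pass. The difference from wild type was -0.19 percentage points in dpf-3;alg-1 (exact permutation p = 0.9) and 0.86 in alg-2 (exact permutation p = 0.7).

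Against single timing miRNAs the picture depended on the miRNA. The log2 ratio of let-7 to lin-4 was 2.79 ± 0.07 in wild type, 0.85 ± 0.20 in alg-1 and 3.22 ± 0.10 for dpf-3;alg-1 (SD, n = 3), and these 3 genotypes did not overlap. The ratio to mir-48 was -0.48 ± 0.18 in wild type, -1.76 ± 0.09 for dpf-3, -2.28 ± 0.04 for alg-1 and -0.54 ± 0.10 for dpf-3;alg-1. let-7 was thus less abundant than mir-48 in every genotype, on this scale of counts without a correction for how well each sequence is captured. The ratio to mir-84 was 1.07 ± 0.11 in wild type and -0.09 ± 0.04 in alg-1. In dpf-3, where the family share was lower, this ratio was 1.05 ± 0.04 and overlapped wild type. The ratio to mir-241 moved least when dpf-3 was mutated on top of alg-1, from 3.57 ± 0.26 to 3.76 ± 0.17, and there the libraries overlapped. It was lowest in dpf-3, at 2.38 ± 0.04, against 4.02 ± 0.12 in wild type. In alg-1, dpf-3;alg-1 and dpf-3;alg-2 it differed from wild type by -0.44, -0.26 and -0.44, each without overlap. The ratio to mir-237 was 1.85 ± 0.13 in wild type. It was lower without overlap in alg-1 (0.75 ± 0.11), dpf-3 (1.51 ± 0.14) and dpf-3;alg-2 (1.31 ± 0.33). In alg-2 and dpf-3;alg-1 the ratio to mir-237 overlapped wild type. The let-7 value was a whole number (tolerance 1e-06) in all 18 libraries, whereas mir-241 held a fraction in 11, lin-4 in 10, mir-237 in 3, mir-84 in 2 and mir-795 in 1. The source of the fractions is not stated.

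**Figure D4:**
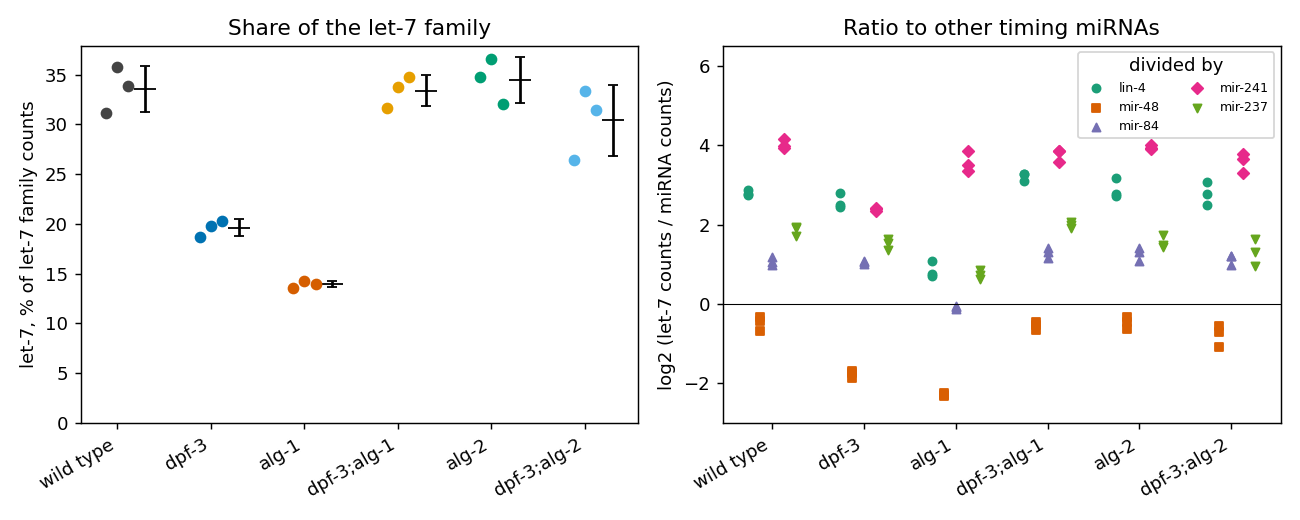
Left, let-7 as a percentage of the let-7 family counts in each library (points) with the mean and SD of 3 libraries (bars); the alg-1 libraries lie at 13.6% to 14.3% and the dpf-3 libraries at 18.7% to 20.3%, below all others. Right, log2 ratio of let-7 to 5 other timing miRNAs in each library (points), where 0 means equal counts; in alg-1 the ratio to lin-4 is 0.85 on average against 2.79 in wild type.

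The miRNAs whose log2 levels over the 6 genotype means were most like those of let-7 were mir-240, mir-259, mir-85, mir-358 and mir-786, out of 114 compared. Their Pearson r was 0.984, 0.972, 0.962, 0.958 and 0.952, and over the 18 libraries 0.961, 0.938, 0.951, 0.910 and 0.934. These are descriptions over points that share libraries and scaling. All 5 fell in alg-1 against wild type, mir-85 by 4.92, mir-240 by 2.65, mir-786 by 2.62, mir-358 by 1.49 and mir-259 by 0.60 on the log2 scale, although mir-259 turned to 0.56 with upper quartile factors. mir-85, for example, went from 7989 ± 748 CPM in wild type to 264 ± 16.5 in alg-1 and to 7929 ± 910 for dpf-3;alg-1 (SD, n = 3).

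The 5 least like let-7 were mir-232, mir-1829c, mir-231, mir-76 and mir-67, with r from -0.953 to -0.936. All 5 were higher in alg-1 than in wild type, by 0.95 to 1.59, and fell again once dpf-3 was mutated as well. These directions come from the levels that chose the miRNAs, so they describe the choice and support nothing. By rank (Spearman) correlation, 2 of the 5 most like and 1 of the 5 least like kept their place. Without composition factors 4 of each did. The ranking rests on alg-1: over the 5 other genotype means, added as an alternative after the data were seen, r was 0.866 for mir-240, 0.878 for mir-259, 0.498 for mir-85, 0.430 for mir-358 and 0.328 for mir-786, and 1 of the 5 most like and none of the 5 least like kept a place among the first or last 5.

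**Figure D5:**
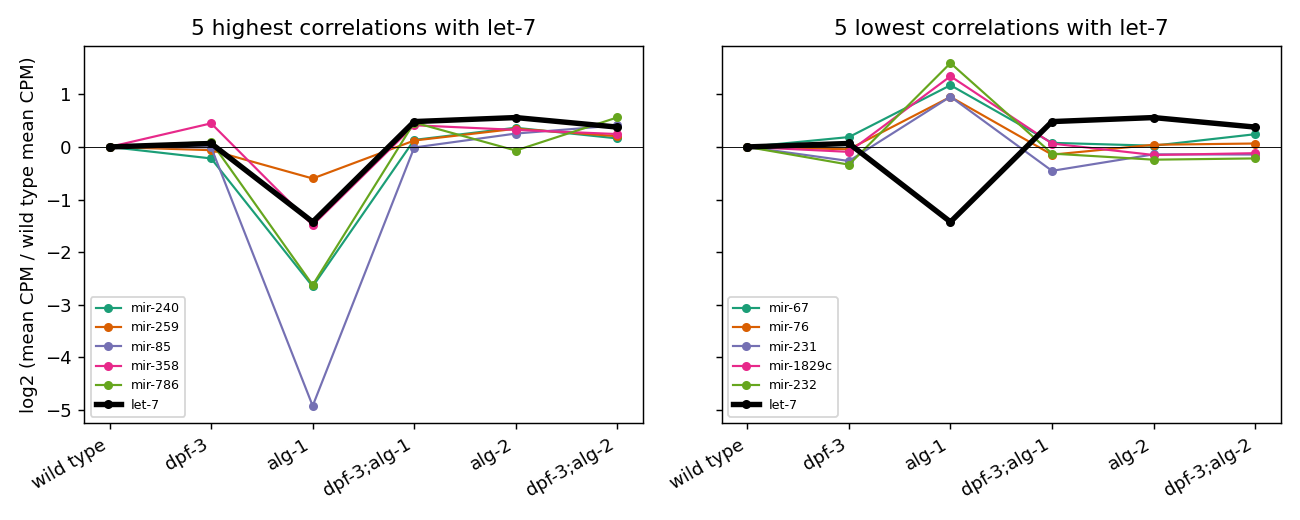
Log2 of the mean CPM of each genotype over that of wild type (vertical axis) for let-7 (black) and the 5 miRNAs with the highest (left) and lowest (right) correlation with it over 6 genotype means. let-7 dips to -1.43 in alg-1 with all 5 on the left and against all 5 on the right; with upper quartile factors mir-259 rises there.

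miRNAs of the same abundance as let-7 in wild type went different ways in alg-1. mir-39, of the mir-35 family, and mir-65, of the mir-64 family, stood just above it in wild type, at 16261 ± 1570 and 15946 ± 1916 CPM, and mir-57 and mir-81 just below, at 14375 ± 1191 and 14348 ± 2266 (SD, n = 3). In alg-1 mir-65 was at 3458 ± 341, mir-81 at 6420 ± 773 and mir-39 at 768 ± 49.5 CPM, and mir-57 was at 22407 ± 2606. The let-7 gene stands alone rather than in a miRNA cluster: in the RefSeq annotation of WBcel235 its next genes are the protein-coding C05G5.1 and wshc-2, C05G5.7 and the non-coding C05G5.8 overlap it, and 74 and 41 protein-coding genes lie between it and the nearest other miRNA genes, mir-8196.2 and mir-1829.2.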

How the data were processed

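The authors deposited expected counts per miRNA for each library, not normalized; per the labels' protocols the steps were Trizol extraction, a NEBNext Multiplex kit and size selection on a gel. Bowtie 0.12.7 is named in the submitters' processing notes. Build and annotation of the miRNAs: not given in the sources used here. Coordinates are therefore left out. The deposited value used is the total in the last column, rounded to whole numbers; let-7 had no counts in the column before it, whose meaning is not stated. mir-44 and mir-45 were identical and were summed, which left 175 miRNAs. Replicates of every genotype differed by more than sampling noise.

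All 18 libraries entered 1 edgeR 4.0.16 fit (R 4.3.3, quasi-likelihood, robust, TMM factors from 0.876 to 1.10) with genotype as the term and 12 residual degrees of freedom. 139 miRNAs with enough counts (filter at 10 counts, total of 15) were tested; 36 left out held 0.000265% of the counts. p-values were adjusted over the 139, and the common biological coefficient of variation was 14.0%. For shares, exact permutation tests over libraries were used. Likeness was measured at a mean of at least 10 CPM, as log2 (CPM + 1).

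The named miRNAs are let-7, the 8 miRNAs of its family, the 6 timing miRNAs, the 5 most and 5 least like let-7, and the pairs next above and below it in wild type level. let-7, these lists, the cell markers and the tests were chosen with earlier results of these data known. Replicate numbers are shared between genotypes, but same-numbered libraries varied together in some pairs only (13 of 45 correlated above 0.1, range -0.72 to 0.69). They were not used as pairs in the main fit. Alternatives were other composition factors (RLE, upper quartile, none), the table without the mir-35 family, other filters, DESeq2 1.42.0, fits of the compared groups alone, replicate blocks and each library left out. Mature sequences are not printed.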

Additional observations from a re-analysis of the deposited data

Results flagged for a closer look

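The response of let-7 to the dpf-3 mutation differed between Argonaute backgrounds by tests of the difference itself. It was larger by 1.84 log2 units (SE 0.16) in alg-1 animals than in animals with alg-1 intact, and larger by 2.09 (SE 0.16) than in alg-2 animals. dpf-3;alg-1 lay above alg-1 in 3 of 3 libraries, while dpf-3 overlapped wild type and dpf-3;alg-2 overlapped alg-2. The first difference was 0.42, with an adjusted p of 0.057 (edgeR), under upper quartile factors and 1.83 to 2.04 under the other scalings. The second was 0.92 under upper quartile factors. The share of the mir-35 family also differed, from 0.331% to 0.348% of the counts in alg-1 to 4.75% to 9.05% in dpf-3;alg-1. With alg-1 intact it went the other way, from 11.7% to 13.5% in wild type to 1.66% to 2.98% in dpf-3. The part of this family was not tested. Without that family in the table the difference was 2.04.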

How the results depend on the processing

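Of 306 recomputed let-7 comparisons 276 kept their direction and their side of the threshold. Upper quartile factors gave 0.37 for dpf-3 against wild type (now called), -0.26 for alg-1 against wild type, 0.16 for dpf-3;alg-1 against dpf-3 and 0.42 for the alg-1 background difference (calls lost), and -0.72 and -0.85 for dpf-3;alg-1 against dpf-3;alg-2 and alg-2 (now called, the first reversed). dpf-3;alg-1 against alg-2, not called in the main result, turned to 0.0048 without composition factors, 0.041 without the mir-35 family, 0.021 with the groups alone and 0.037 with the replicate block within sets. dpf-3;alg-2 against wild type lost its call at 0.28 (RLE), 0.28 (DESeq2), 0.29 (groups alone) and 0.26 (block within sets). dpf-3;alg-2 against dpf-3 lost it at 0.28, 0.28, 0.29 and 0.19 in the same settings, at 0.20 without composition factors, 0.23 without the mir-35 family and 0.29 without a count filter, and alg-2 against dpf-3 at 0.38 with the block within sets. With the block within sets, comparisons across library sets were taken at the fitted level of replicate 1 of each set. Those values are therefore not of the same quantity as the main result. The cause of the other changes was not tested. The replicate block over all libraries changed no let-7 call, with -1.42 for alg-1 against wild type and 1.91 for dpf-3;alg-1 against alg-1.

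With each library left out, dpf-3;alg-2 against wild type ran from 0.26 to 0.49 (lost without dpf-3;alg-2 replicate 2), dpf-3;alg-2 against dpf-3 from 0.15 to 0.43 (lost without dpf-3 replicates 1 and 2 and dpf-3;alg-2 replicates 2 and 3), alg-2 against dpf-3 from 0.35 to 0.56 (lost without dpf-3 replicate 2), dpf-3;alg-1 against alg-2 from -0.14 to 0.0088 and dpf-3;alg-1 against dpf-3;alg-2 from -0.011 to 0.22. The family share difference from wild type ran from -1.41 to 0.88 points in dpf-3;alg-1 and from -0.37 to 2.08 in alg-2, with values of 0.67 and -0.19 among those that turned.

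Among 138 called values of the other named miRNAs, 2216 of 2424 recomputed values kept their call, 192 lost it and 16 reversed, all 16 with upper quartile factors. In alg-1 against wild type mir-84, mir-241, mir-794, mir-237 and mir-259 became 0.90, 0.19, 0.91, 0.85 and 0.56. In dpf-3;alg-1 against alg-1 mir-84, mir-794, mir-237 and mir-259 became -0.60, -0.41, -0.46 and -0.40. In the alg-1 background difference mir-84, mir-794, mir-795 and mir-259 became -0.98, -0.74, -0.43 and -0.64, and in the difference between alg-1 and alg-2 animals mir-84, mir-237 and mir-259 became -0.59, -0.56 and -0.30. Members that did not pass the test were not followed. Counts of called miRNAs moved by over 1.5 times with upper quartile factors in alg-2 against wild type (63 to 111), dpf-3;alg-2 against wild type (66 to 118), dpf-3;alg-2 against dpf-3 (41 to 105) and alg-2 against dpf-3 (38 to 102). With the block within sets these counts moved to 36, 39, 15 and 23. The filter at 10 CPM left 14 called in dpf-3;alg-2 against alg-2. With single libraries left out, dpf-3;alg-2 against dpf-3 fell to 23 at the lowest, and the alg-2 background difference to 18 and 22. Counting error, which covers the sampling of reads only, stayed below the spread between replicates for let-7. Other effects of library depth were not tested.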
